A study of Mus musculus with 26 samples.

Results

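The neutrophil-attracting CXC chemokine genes examined here are Cxcl1, Cxcl2, Cxcl3, Cxcl5, Cxcl15 and Ppbp. They were taken by symbol, ignoring case, as 6 of the 55391 gene symbols in a table of RNA sequencing counts. The table covers EA1, EA2 and EA3, murine lung cancer cell lines of genotype EML4-ALK, each cultured with 100 nM alectinib, an inhibitor of the ALK kinase, or with its solvent DMSO at 0.1%. Every culture therefore carried the fusion oncogene, and all 3 lines came from C57BL/6 mice. No host cells were added to the cultures. A single library was made for each line, treatment and day, and days 1, 2, 3 and 5 gave 4 libraries per line and treatment, or 24 in all. The 4 days served as replicates. The p-values therefore rest on the spread between days within lines, estimated over the 3 lines together, and not on that between separate repeats of the experiment.

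CXC chemokines are small secreted proteins. Those studied here belong to the branch that draws neutrophils out of the blood, which they do mainly through the receptor Cxcr2 on the neutrophil surface. Epithelial and tumor cells can make Cxcl1, Cxcl2, Cxcl3 and Cxcl5 when inflammatory signaling through NF-kB is active, and the transcripts are short-lived. Cxcl15, also called lungkine, is known from mouse lung epithelium, and Ppbp encodes the precursor of CXCL7, which is best known from platelets.

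All members lie on the + strand of chromosome 5 of mm10 in a cluster of 146579 bases, from 90759360 to 90905938. In order along the chromosome, the genes are Cxcl5 (90759360 to 90761624), Ppbp (90768518 to 90770063), Cxcl3 (90786103 to 90789600), Cxcl15 (90794534 to 90803067), Cxcl1 (90891241 to 90893115) and Cxcl2 (90903871 to 90905938). Pf4, which encodes platelet factor 4, is the only other protein-coding gene between them. No member shared exon bases with another annotated gene on either strand. Cxcl2 and Cxcl3 were the only pair with exon sequence in common, at 161 words of 31 bases, which made up 7.59% of the words of Cxcl2 and 4.56% of those of Cxcl3.

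The bases just before the transcription start are shown because the members lie side by side and differ there in known motif types. A link between these motifs and the levels was not tested. RefSeq (GRCm38.p6) gave a promoter for 5 of the 6 members, and Cxcl5 was not in the table. The 150 bases before each RefSeq start are given 5′ to 3′ on the coding strand. Capitals mark matches to a kB-type motif, GGG, any 2 bases and TTTCC on either strand, the kind of site bound by NF-kB factors, and to a TATA-box-type motif, TATAAA on the coding strand.
Cxcl1, chr5:90891095-90891244: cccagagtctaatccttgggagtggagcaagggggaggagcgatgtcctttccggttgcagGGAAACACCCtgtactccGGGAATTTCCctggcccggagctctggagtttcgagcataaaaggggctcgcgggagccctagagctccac
Cxcl2, chr5:90903749-90903898: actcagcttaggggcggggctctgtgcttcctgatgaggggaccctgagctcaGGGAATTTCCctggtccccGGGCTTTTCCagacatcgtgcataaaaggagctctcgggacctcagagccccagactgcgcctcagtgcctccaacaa
Cxcl3, chr5:90785951-90786100: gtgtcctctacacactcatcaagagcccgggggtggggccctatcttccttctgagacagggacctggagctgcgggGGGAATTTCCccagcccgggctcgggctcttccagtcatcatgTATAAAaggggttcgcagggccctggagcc
Cxcl15, chr5:90794384-90794533: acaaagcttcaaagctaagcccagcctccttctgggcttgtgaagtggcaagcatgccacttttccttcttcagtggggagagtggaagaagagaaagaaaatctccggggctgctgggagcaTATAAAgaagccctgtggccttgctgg
Ppbp, chr5:90768368-90768517: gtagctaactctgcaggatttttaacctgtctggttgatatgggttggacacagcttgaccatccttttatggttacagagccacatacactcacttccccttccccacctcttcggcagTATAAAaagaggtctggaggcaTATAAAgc

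A kB-type match was present before Cxcl1, Cxcl2 and Cxcl3. Cxcl1 had matches starting 89 bases (opposite strand) and 71 bases before the start, Cxcl2 at 97 and 78 bases, and Cxcl3 at 73 bases. Neither Cxcl15 nor Ppbp held these letters within 250 bases of the start. Only 1.41% of 32851 mouse promoters held them, so that their absence is the common case. A looser pattern, GGG, any 5 bases and CC, overlaps the first, occurred in 45.8% of promoters and was again found in the same 3 members. The TATA-box-type motif, present in 7.59% of promoters, was found before Cxcl3, Cxcl15 and Ppbp. An AP-1-type motif, TGANTCA on either strand, occurred before Ppbp alone, 204 bases from the start, against 6.75% of all promoters. These are matches of letters, and binding was not measured.

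**Figure D1:**
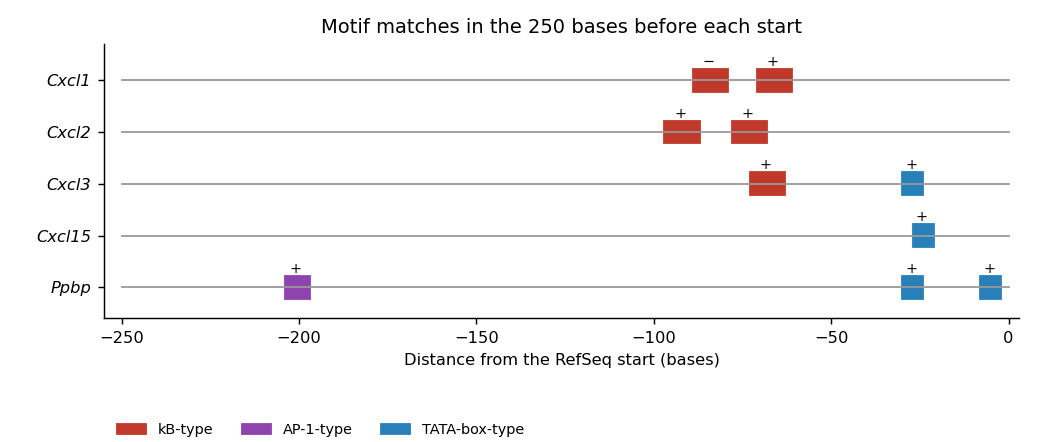
Matches to the kB-type, AP-1-type and TATA-box-type motifs in the 250 bases before the RefSeq start of 5 members, by distance from the start in bases; the sign above a box is the strand. The kB-type matches of Cxcl1, Cxcl2 and Cxcl3 lie between 97 and 62 bases before the start, and Cxcl15 and Ppbp have none.

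Library totals of the 24 libraries ran from 5780062 to 11732401 counts (median 9252878). Detection was set at a floor of 3 counts, which corresponded to 0.251 to 0.530 CPM and covers counting error only. CPM values (counts scaled to the size of the library with TMM factors) are not adjusted for gene length and are given as mean ± SD over 4 days. The summed level of 4 epithelial markers (Epcam, Cdh1, Krt8 and Krt18) was 453 to 862 CPM in alectinib-treated EA2 and between 1596 and 7187 CPM in the other groups, whereas Epcam was at 0 in the EA2 alectinib libraries, and the lung markers Sftpc and Scgb1a1 were at or under the floor throughout; Nkx2-1 exceeded it in 1 EA3 alectinib library alone. Of the neutrophil markers Ly6g, Csf3r, Mpo and Elane, none exceeded the floor in EA1, EA2 or alectinib-treated EA3, and in DMSO-treated EA3 Ly6g alone did, at 4 to 30 counts. The leukocyte marker Ptprc had at most 4 counts in any library, and the summed level of 5 leukocyte markers, to which Cd68 and Itgb2 gave nearly all, lay between 2.01 and 105 CPM. The 4 endothelial markers summed to at most 9.39 CPM. The summed level of 5 fibroblast markers moved with the chemokine genes. It went from 8.34 to 43.0 CPM in DMSO to 80.6 to 211 CPM with alectinib in EA1, from 16.7 to 22.6 to 33.7 to 101 CPM in EA2, and from 10.1 to 20.1 to 83.7 to 201 CPM in EA3. Thy1 stayed at or under the floor and Pdgfra was not called in any line. Col1a1 and Col1a2 were past the threshold in each line, and Pdgfrb in EA1 and EA3. Pdgfrb was the largest part of the sum in EA1, where it went from 19.4 ± 14.5 to 110 ± 36.7 CPM. In EA3, it held 0 counts in DMSO and 0 to 62 with alectinib. In EA1, Col1a2 held 0 counts in DMSO and 0 to 12 with alectinib. The part of the fibroblast markers in the results was not tested. The summed level of 4 megakaryocyte and platelet markers was 14.5 to 31.8 CPM in alectinib-treated EA2 and at most 13.4 CPM in every other group, while Gp6 was at or under the floor throughout. In bulk RNA, fewer cells that make a transcript and less of it per cell cannot be told apart.

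A further pair of libraries was labelled EA3 day 7. Across 14264 genes, which are not independent replicates, the DMSO library of that pair correlated at r = 0.967 with the mean of EA2 and at 0.887 with that of EA3, and the alectinib library at 0.986 and 0.876. Both libraries thus went against their label, and they were left out of the values below unless they are named.

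With alectinib, 5 of the 6 members rose in EA1, while 3 rose in EA2 and another set of 3 in EA3, and none fell, at an adjusted p (Benjamini-Hochberg) below 0.05 in edgeR's quasi-likelihood test, in which the line and the day formed a block. Among all 14264 genes tested, 33.6% changed in either direction in EA1, 24.4% did so in EA2 and 32.6% in EA3. Over the members, EA1 had a median log2 fold change of 3.41, EA2 of 1.76 and EA3 of 0.95, beside 0.06, -0.00 and 0.07 over all genes. Without Cxcl2, whose counts averaged at or under the floor in both groups of EA1 and EA2, the medians of these lines were 4.97 and 2.13. All members passed the filter on low counts, but Cxcl2 did so through its EA3 libraries and Cxcl15 almost wholly through alectinib libraries. A call of either, as of Cxcl15 in EA1 and EA3, therefore adds nothing to its counts. The members called were not the same in each line. Cxcl5 was higher in all 3 lines, Cxcl1 and Cxcl3 in EA1 and EA2, and Cxcl15 and Ppbp in EA1 and EA3.

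**Figure D2:**
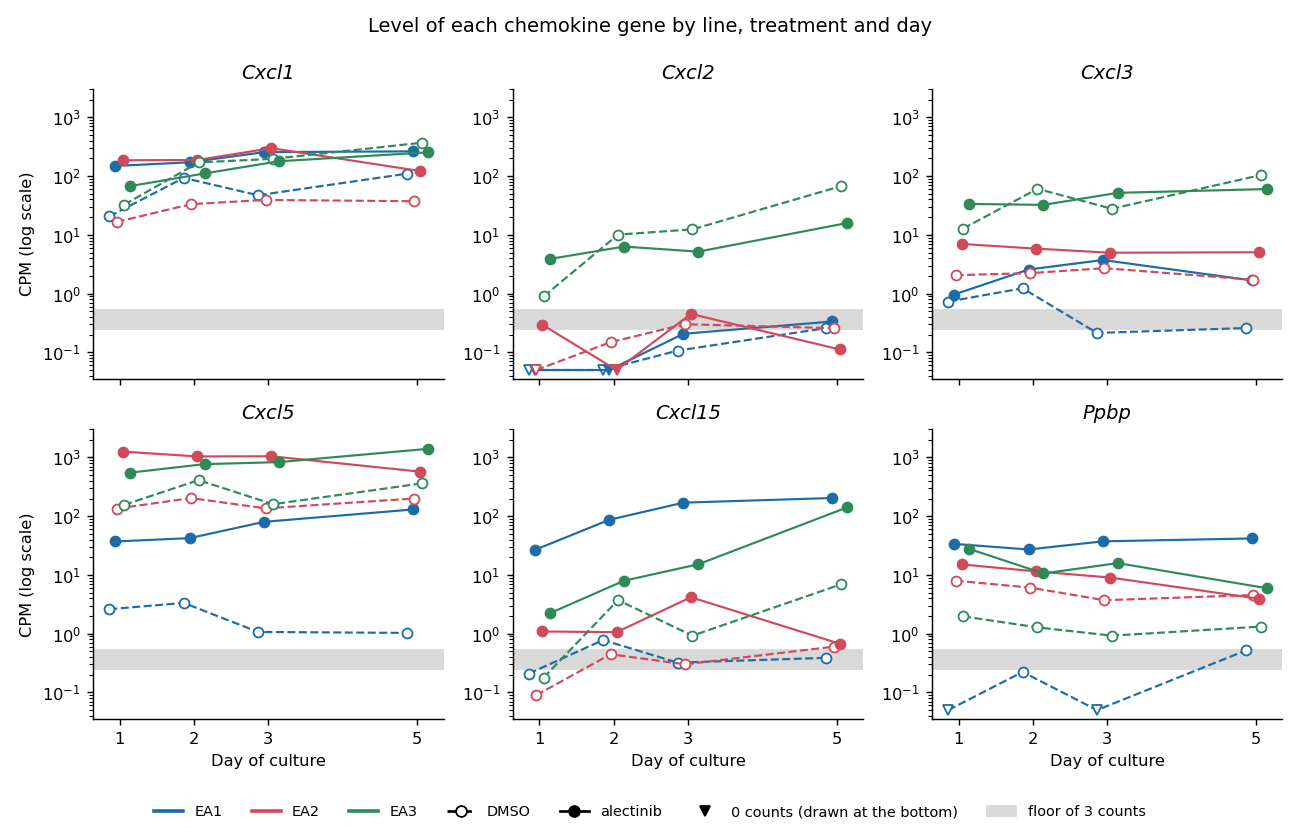
CPM of each member (log axis) against the day of culture, with 1 point per library (set slightly apart around each day), broken lines for DMSO and full lines for alectinib; triangles at the bottom are libraries with 0 counts and the grey band is the floor of 3 counts. Cxcl5 is higher with alectinib on every day in all lines, Cxcl2 rises above the band in EA3 alone, and Cxcl15 and Ppbp leave the band in EA1 with alectinib.

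Cxcl1, known as KC in the mouse, was together with Cxcl5 above the floor in all 24 libraries. In EA1, it stood at 20.7, 93.3, 47.2 and 110 CPM on days 1, 2, 3 and 5 in DMSO, and at 149, 172, 256 and 264 CPM with alectinib. Every alectinib library of EA1 was above every DMSO library, a separation that 18.4% of all genes tested showed in this line. The mean rose from 67.8 ± 41.1 to 210 ± 58.0 CPM (n = 4 days), with a log2 fold change of 1.85 ± 0.37 (SE; adjusted p = 0.00206, edgeR). In EA2, the DMSO libraries held 16.6, 33.4, 39.3 and 37.4 CPM and the alectinib libraries 186, 188, 299 and 122 CPM. These groups did not overlap either, as was the case for 14.3% of genes in EA2, and the log2 fold change was 2.65 ± 0.37 (adjusted p = 0.000214, edgeR). In EA3, Cxcl1 was at 32.7, 171, 197 and 370 CPM in DMSO and at 67.7, 111, 179 and 254 CPM with alectinib. The EA3 groups overlapped, since only the day 1 pair was higher with alectinib, and the log2 fold change of -0.08 had a 95% confidence interval from -0.84 to 0.68 (adjusted p = 0.881, edgeR). Its sign turned under library size alone, and without day 2 or day 5. With the libraries labelled EA3 day 7 included (43.7 CPM in DMSO and 347 CPM with alectinib), the EA3 value was 0.42 (adjusted p = 0.522, edgeR).

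Cxcl2, which encodes MIP-2, was a transcript of EA3. In EA1, it had 0, 0, 1 and 2 counts in DMSO and 0, 0, 2 and 4 counts with alectinib, and in EA2 0, 1, 3 and 3 counts and 3, 0, 4 and 1 counts. Of the 16 EA1 and EA2 libraries, 14 were at or under the floor and 6 held no count, so that no fold change is given and a difference was not detectable at this depth. In EA3, Cxcl2 rose over the DMSO time course through 10, 87, 94 and 410 counts (0.897, 10.1, 12.4 and 67.6 CPM). The alectinib libraries of EA3 held 42, 58, 55 and 147 counts (3.88, 6.32, 5.18 and 15.9 CPM). Alectinib was thus above DMSO on day 1 and below it on days 2, 3 and 5, and the groups overlapped. The log2 fold change over the 4 days was -0.67 ± 0.61 (95% confidence interval -2.01 to 0.66; adjusted p = 0.426, edgeR), and without day 1 it was -1.36 (adjusted p = 0.0255). The libraries labelled EA3 day 7 held 2 and 6 counts, a level of EA2 rather than of EA3.

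Cxcl3, a close relative of Cxcl2, was near the floor in EA1, with 7, 11, 2 and 2 counts in DMSO and 10, 21, 36 and 20 counts with alectinib. The EA1 groups overlapped at 10 and 11 counts. In EA2, there were 23, 15, 27 and 20 counts in DMSO and 71, 33, 44 and 45 with alectinib, and the groups did not overlap. Cxcl3 rose in both lines, with log2 fold changes of 1.83 ± 0.59 (EA1, adjusted p = 0.0286) and 1.39 ± 0.46 (EA2, adjusted p = 0.0397, edgeR). Both calls were close to the threshold. Without day 3, the EA1 log2 fold change was 1.18 and the call was lost (adjusted p = 0.192). It was also lost at 1.62 without day 5 (0.0974), at 1.80 with each line fitted alone (0.0556) and at 1.75 with the libraries labelled EA3 day 7 (0.0732). The EA2 call was lost without any 1 of the 4 days (adjusted p from 0.0505 to 0.112), without the day block (0.0573), under library size alone (0.0524) and with all 26 libraries (0.0969), while the log2 fold change stayed between 1.26 and 1.57 in these fits. In EA3, Cxcl3 was much more abundant, at 12.8, 60.8, 27.8 and 104 CPM in DMSO and 33.6, 32.4, 51.9 and 60.2 CPM with alectinib. The direction changed from day to day in EA3, being higher on days 1 and 3 and lower on days 2 and 5, and the log2 fold change was 0.13 (95% confidence interval -0.73 to 1.00; adjusted p = 0.830, edgeR), whose sign turned without day 1 or day 3 and without the day block.

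Cxcl5, known as LIX in the mouse, had the highest mean CPM of the members in EA2 and EA3, although Cxcl1 was above it in the DMSO libraries of EA3 on days 3 and 5. In EA1, it was scarce in DMSO at 25, 30, 10 and 8 counts (2.61, 3.34, 1.07 and 1.03 CPM) and reached 37.1, 42.3, 80.1 and 130 CPM with alectinib. In EA2, it went from 135, 203, 136 and 200 CPM in DMSO to 1258, 1040, 1047 and 573 CPM. In EA3, the values were 156, 411, 160 and 361 CPM in DMSO and 551, 769, 833 and 1400 CPM with alectinib. The groups were apart in each line, as they were for 12.9% of genes in EA3, and the alectinib library was the higher of the pair on all 12 line-and-day pairs. EA1 had a log2 fold change of 4.97 ± 0.52 (adjusted p = 2.49e-05), EA2 of 2.51 ± 0.42 (0.000772) and EA3 of 1.77 ± 0.41 (0.00524, edgeR). These 3 calls held under every alternative in which Cxcl5 was tested. The libraries labelled EA3 day 7 held 63.3 CPM in DMSO and 854 CPM with alectinib.

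Cxcl15 was barely present without drug. It passed the filter almost wholly through alectinib libraries, so that its test results below add nothing to its counts. In EA1 there were 2, 7, 3 and 3 counts in DMSO, of which 3 libraries were at or under the floor, and 276, 707, 1637 and 2440 counts (26.6, 86.6, 170 and 204 CPM) with alectinib. The alectinib libraries of EA1 were all far above the DMSO libraries. The ratio of the summed counts, scaled for library size, had a 95% interval from 181-fold to 536-fold, which covers counting error alone and not the spread between days, and the fitted log2 fold change was 7.98 ± 0.65 (adjusted p = 4.99e-06, edgeR). In EA3, Cxcl15 had 2, 32, 7 and 42 counts in DMSO and 24, 73, 161 and 1299 counts with alectinib. The EA3 groups overlapped, yet on each day the alectinib library was the higher, and the log2 fold change was 3.19 ± 0.56 (adjusted p = 0.000926, edgeR). The day 5 library, at 141 CPM, stood apart from the other EA3 alectinib libraries at 2.22 to 15.2 CPM, and the log2 fold change was 2.53 without day 5 (adjusted p = 0.0106) and 4.11 without day 2 (0.000529). In EA2, the counts were 1, 3, 3 and 7 in DMSO and 11, 6, 37 and 6 with alectinib. The log2 fold change in EA2 was 2.13 ± 0.77 (95% confidence interval 0.47 to 3.79; adjusted p = 0.0605, edgeR), so that the test was not passed. The EA2 result turned on the days used. Without day 3, which holds the library of 37 counts, the log2 fold change was 1.32 (adjusted p = 0.410), and without day 1 it was 1.91 (0.209), whereas it passed at 2.33 without day 2 (0.0228), at 2.94 without day 5 (0.0282) and in DESeq2 (0.0125).

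Ppbp, the platelet-associated member, went from absent or scarce to clearly expressed in EA1. In EA1, DMSO libraries held 0, 2, 0 and 4 counts and alectinib libraries 350, 221, 360 and 499 counts (33.8, 27.1, 37.3 and 41.8 CPM). All 4 alectinib libraries lay close together and far above the controls. The summed counts gave a ratio of 212-fold (95% interval 97.0 to 578, counting error alone), and the fitted log2 fold change was 7.61 ± 0.56 (adjusted p = 4.51e-06, edgeR). With 6 counts in all in DMSO, its size was loosely set, from 7.13 without day 3 to 8.54 without day 5. In EA3, Ppbp rose from 1.97, 1.28, 0.924 and 1.32 CPM to 27.8, 10.6, 15.9 and 5.95 CPM, again without overlap, with a log2 fold change of 3.33 ± 0.44 (adjusted p = 0.000135, edgeR). In EA2, the untreated level was the highest of the lines at 7.97, 6.09, 3.71 and 4.55 CPM, and the alectinib libraries held 15.1, 11.5, 9.02 and 3.93 CPM. The EA2 groups overlapped, since the day 5 pair was lower with alectinib, and the log2 fold change of 0.74 (95% confidence interval -0.08 to 1.56) did not pass the test (adjusted p = 0.180, edgeR). Of the platelet markers, Itga2b was higher with alectinib in EA1 (log2 fold change 1.44) and EA2 (1.14), and Gp1ba in EA2 (1.88). Neither was called in EA3 (0.20 for Itga2b and -0.63 for Gp1ba), nor was Gp1ba in EA1 (0.56). Gp9 and Gp6 were too low to be tested.

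**Figure D3:**
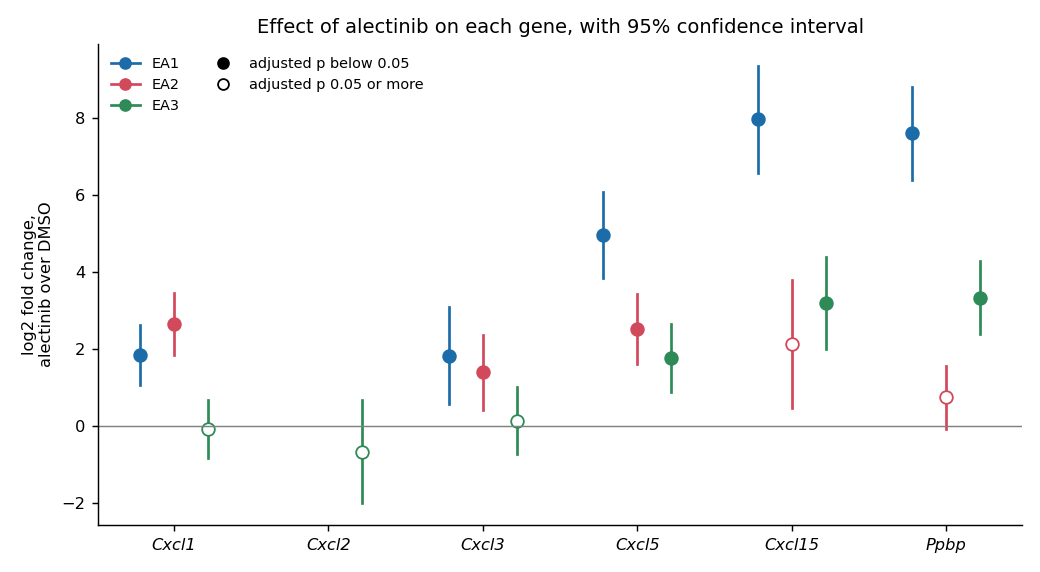
Log2 fold change of alectinib over DMSO for each member by line, with 95% confidence intervals from edgeR. Filled points have an adjusted p below 0.05, and Cxcl2 is drawn for EA3 alone because it was at or near the floor elsewhere. Cxcl15 and Ppbp reach 7.98 and 7.61 in EA1, and the intervals of Cxcl1, Cxcl2 and Cxcl3 include 0 in EA3.

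The size of the alectinib effect was then compared between the lines. It differed for 4 of the 6 members, Cxcl1 (adjusted p = 0.0140), Cxcl5 (0.0214), Cxcl15 (0.00672) and Ppbp (0.000535), in edgeR's test with 2 degrees of freedom, which called 6.84% of all genes. Cxcl15 entered this test almost wholly through alectinib libraries, so that its calls add nothing to its counts. Differences between lines are given on the log2 scale. For Cxcl1, the effect in EA3 minus that in EA2 was -2.73 ± 0.51 (adjusted p = 0.0135), EA3 minus EA1 was -1.93 ± 0.51 and did not pass (adjusted p = 0.0765), and EA1 and EA2 were not shown to differ (difference 0.80, 95% confidence interval -0.28 to 1.89; adjusted p = 0.343). For Cxcl5, Cxcl15 and Ppbp, EA1 had the strongest rise, where the DMSO libraries of EA1 held 15 counts of Cxcl15 and 6 of Ppbp in all and those of EA2 14 counts of Cxcl15. EA2 minus EA1 came to -2.46 ± 0.64, -5.85 ± 1.22 and -6.86 ± 0.69 for these genes, and EA3 minus EA1 to -3.20 ± 0.64, -4.79 ± 0.88 and -4.27 ± 0.75, with adjusted p from 0.000193 to 0.0389. By pair of lines, 6.44% of all genes were called for EA2 and EA1, 1.79% for EA3 and EA1, and 2.86% for EA3 and EA2. Between EA3 and EA2, the effect on Ppbp was larger in EA3 by 2.59 ± 0.58 (adjusted p = 0.0308), while those on Cxcl5 (-0.75, 95% confidence interval -1.96 to 0.46) and Cxcl15 (1.06, -1.20 to 3.33) did not pass the test. The effect on Cxcl3 was not shown to differ (adjusted p = 0.209). Without day 3, Ppbp alone passed the test between lines, with adjusted p-values of 0.137 for Cxcl1, 0.138 for Cxcl5 and 0.0601 for Cxcl15, and Cxcl5 also missed it without day 5 (0.0812). With all 26 libraries, the adjusted p was 0.165 for Cxcl1 and 0.0776 for Cxcl5, and without the day block it was 0.120 for Cxcl15.

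In DMSO cultures alone, the level of each of the 4 members that could be tested differed between lines (Cxcl1, Cxcl3, Cxcl5 and Ppbp; adjusted p from 6.29e-08 to 0.000211, edgeR), in a comparison that called 55.6% of genes. Between pairs of lines, 40.8% (EA2 and EA1), 32.6% (EA3 and EA1) and 36.5% (EA3 and EA2) of genes differed in DMSO. The order was not the same for each member. Cxcl1 was highest in EA3 and lowest in EA2, with means of 193 ± 138 CPM in EA3, 67.8 ± 41.1 CPM in EA1 and 31.7 ± 10.4 CPM in EA2, and each neighbouring pair differed (adjusted p = 0.00482 and 0.0334). Cxcl3 was at 51.4 ± 40.5 CPM in EA3, 2.18 ± 0.411 CPM in EA2 and 0.607 ± 0.474 CPM in EA1, and again both steps passed the test (adjusted p = 7.08e-05 and 0.0418). Cxcl5 was at 272 ± 133 CPM in EA3 and 169 ± 38.1 CPM in EA2, which were not shown to differ (adjusted p = 0.0707), and at 2.02 ± 1.15 CPM in EA1, where EA2 was higher by 6.35 ± 0.34 on the log2 scale (adjusted p = 6.00e-08). Ppbp followed another order, with 5.58 ± 1.87 CPM in EA2, 1.37 ± 0.438 CPM in EA3 and 0.185 ± 0.245 CPM in EA1, and each step passed the test (adjusted p = 0.00866 and 0.00730), with 37 to 89 counts per library in EA2, 7 to 22 in EA3 and 0 to 4 in EA1. Cxcl2 and Cxcl15 did not pass the filter in these 12 libraries. The DMSO mean of Cxcl2 was 22.7 ± 30.3 CPM in EA3, against 0.0913 ± 0.122 in EA1 and 0.177 ± 0.134 in EA2. That of Cxcl15 was 2.94 ± 3.06 CPM in EA3, 0.424 ± 0.248 in EA1 and 0.359 ± 0.218 in EA2, where 3 of 4 libraries of each of the latter lines were at or under the floor.

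With alectinib, Cxcl15 and Ppbp were highest in EA1, Cxcl3 kept the order of its DMSO means, and Cxcl2 was again highest in EA3. The test between lines called all members but Cxcl1 (5 of 6; adjusted p from 2.39e-05 to 0.00427, edgeR), as it did 63.2% of genes, and 47.8% (EA2 and EA1), 38.6% (EA3 and EA1) and 44.3% (EA3 and EA2) by pair of lines. This comparison was added after seeing the data. Cxcl2 entered it only through EA3, so that its call adds nothing to its counts, which were 42 to 147 per library in EA3 and 0 to 4 in EA1 and EA2. Cxcl1 stood at 210 ± 58.0 CPM in EA1, at 199 ± 73.8 in EA2 and at 153 ± 81.6 in EA3, levels that were not shown to differ (adjusted p = 0.328), with an interval from -1.24 to 0.21 on the log2 scale for EA3 minus EA1. For Cxcl15, EA1 was the highest at 122 ± 80.4 CPM, before EA3 at 41.5 ± 66.3 and EA2 at 1.75 ± 1.63 (adjusted p of the steps 0.0295 and 0.0153), at 276 to 2440, 24 to 1299 and 6 to 37 counts per library. Ppbp was likewise highest in EA1 at 35.0 ± 6.22 CPM, against 15.1 ± 9.42 in EA3 (adjusted p = 0.0191) and 9.89 ± 4.69 in EA2, and EA3 and EA2 were not shown to differ (adjusted p = 0.253). Cxcl5 remained lowest in EA1 at 72.3 ± 42.8 CPM, with 980 ± 289 in EA2 and 888 ± 362 in EA3, which were not shown to differ (adjusted p = 0.641). Cxcl3 was at 44.5 ± 13.7 CPM in EA3, 5.72 ± 0.948 in EA2 and 2.24 ± 1.19 in EA1, with both steps past the threshold (adjusted p = 0.000191 and 0.0116). Cxcl2 was at 7.82 ± 5.48 CPM in EA3 and at or near the floor in EA2 (0.215 ± 0.199) and EA1 (0.136 ± 0.165).

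The summed CPM of the 6 members describes how much chemokine transcript of this branch each culture held. It was 71.1 ± 41.4 CPM in DMSO and 442 ± 183 CPM with alectinib in EA1, 208 ± 43.0 and 1196 ± 340 CPM in EA2, and 543 ± 307 and 1150 ± 514 CPM in EA3. The EA1 libraries ran from 24.3 to 112 CPM in DMSO and from 248 to 642 CPM with alectinib, and those of EA2 from 162 to 246 and from 705 to 1468 CPM, without overlap in either line. In EA3, they ran from 205 to 911 and from 686 to 1877 CPM and overlapped. The make-up of the sum also differed between lines and treatments. Cxcl1 made up 95.3% of the sum in untreated EA1 and 47.6% with alectinib, where Cxcl15 contributed 27.6%, Cxcl5 16.4% and Ppbp 7.92%. In EA2, Cxcl5 made up 80.8% in DMSO and 81.9% with alectinib, so that the make-up stayed nearly as it was. In EA3, the share of Cxcl5 went from 50.1% to 77.2% and that of Cxcl1 from 35.5% to 13.3%. Per kb of transcript, which allows levels of different genes to be compared, Cxcl1 still led in EA1 with alectinib (220 CPM per kb, against 57.3 for Cxcl15, 45.9 for Cxcl5 and 32.3 for Ppbp). On the same scale, the means of Cxcl1 and Cxcl5 in untreated EA3 were 202 and 173, with Cxcl5 the higher on days 1 and 2 and Cxcl1 on days 3 and 5, and with alectinib they were 161 and 564.

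**Figure D4:**
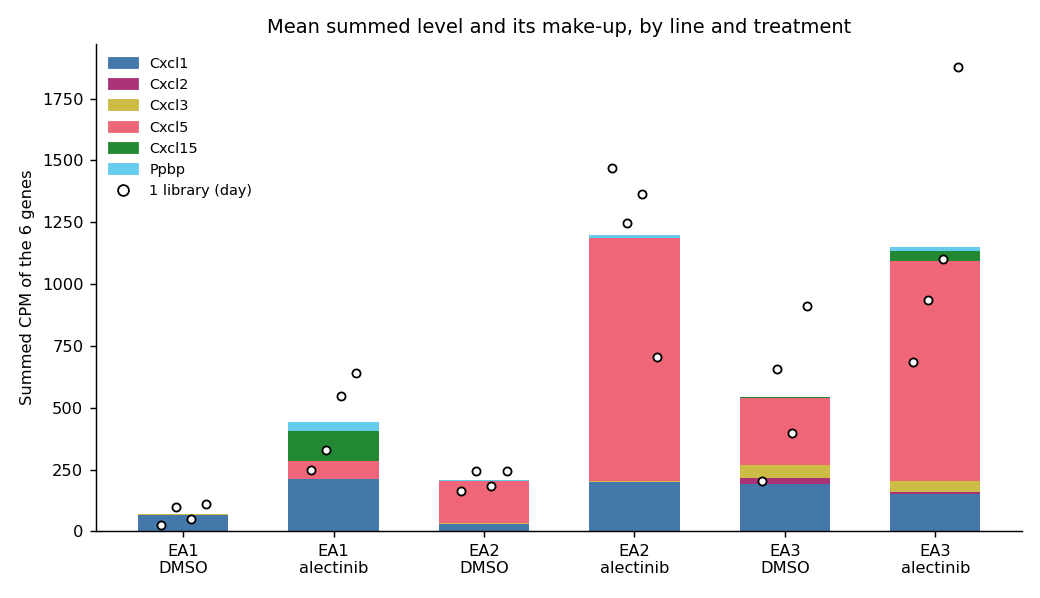
Mean summed CPM of the 6 members by line and treatment (bars from 0, split by gene), with open points for the 4 libraries of each group in order of day from left to right. EA1 goes from 71.1 to 442 CPM, EA2 from 208 to 1196 CPM and EA3 from 543 to 1150 CPM, and Cxcl5 is the main part of the bars of EA2 and of alectinib-treated EA3.

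The DMSO cultures were themselves not constant over time. In EA3, Cxcl1 rose by 1.43 ± 0.30 on the log2 scale per doubling of the day number (adjusted p = 0.00891), Cxcl2 by 2.50 ± 0.38 (0.00255) and Cxcl3 by 1.10 ± 0.31 (0.0330, edgeR). They were the only members called in DMSO, among 18 tests of 6 members in 3 lines, while 5.69% of genes rose in this way in EA3, 1.98% in EA1 and 0% in EA2. Cxcl15, at 1.49 ± 0.54 in EA3, did not pass (adjusted p = 0.0811). All 3 calls were lost without day 1 (adjusted p from 0.853 to 0.871), without day 5 (from 0.125 to 0.452) and with the libraries labelled EA3 day 7 (from 0.231 to 0.754), and that of Cxcl3 also without day 2 (0.0529). The slopes of Cxcl1, Cxcl2 and Cxcl3 were 0.86, 2.12 and 0.64 without day 1, 1.74, 2.49 and 0.98 without day 5, and 0.71, 1.73 and 0.38 with the libraries labelled EA3 day 7. In the alectinib cultures, added after seeing the data, Cxcl15 rose in EA3 by 2.60 ± 0.41 per doubling of the day number (adjusted p = 0.00912, edgeR), where 0.442% of genes rose (0% in EA1 and 0.0210% in EA2). It was the only one called in alectinib, and the call was lost without day 1, day 2 or day 5 and with all 26 libraries (adjusted p = 0.213). The alectinib effect itself was not shown to change over the days for any member. Among 18 tests, 0 passed an adjusted p of 0.05 in edgeR, 2 had an unadjusted p below it (Cxcl5 in EA1, 1.43 ± 0.44 per doubling, and Cxcl2 in EA3, -1.74 ± 0.46), and DESeq2 called 2. Over all genes, the edgeR test called 0.0210% in EA1, 0% in EA2 and 0.0491% in EA3. As values, the log2 ratio of Cxcl5 in EA1 was 3.72, 3.58, 5.97 and 6.70 on days 1, 2, 3 and 5, and that of Cxcl1 in EA2 was 3.47, 2.48, 2.92 and 1.70.

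Cxcr1, Cxcr2 and Ackr1, receptors that read these chemokines, were almost absent from the cultures. They were too low to be tested, with at most 2, 9 and 0 counts in any library, and Cxcr2 had 0 counts in all 12 alectinib libraries. Ackr3, an atypical receptor that scavenges chemokines, is not taken here as a receptor of the members. It was expressed in every group, with means from 32.1 to 157 CPM. With alectinib, Ackr3 was lower in EA2 (log2 fold change -1.36, adjusted p = 0.00527) and EA3 (-1.60, adjusted p = 0.00163, edgeR), at -0.73 in EA1. Of 9 other CXC chemokines, 6 were tested, of which 3 rose with alectinib in EA1, 2 rose in EA3 and 0 in EA2, and none fell (median log2 fold change 2.98 for EA1, 0.13 for EA2 and 1.11 for EA3). Over all genes, 33.6% were called in either direction in EA1, 24.4% in EA2 and 32.6% in EA3, so that 2 of 6 in EA3 was close to the background. Cxcl12 held no count in EA2 and gave no test there, and without the genes that averaged at or under the floor in both groups the medians were 4.71 over 4 genes, 0.25 over 5 and 1.44 over 4. Pf4, the gene between Ppbp and Cxcl3, went from 0 to 1 counts to 9 to 37 counts in EA1. In EA2, Pf4 held 3 to 13 counts in DMSO and 0 to 3 with alectinib, and in EA3 at most 4 counts, so that it entered the tests almost wholly through the alectinib libraries of EA1. Cxcl12, a chemokine of stromal cells that acts on Cxcr4, rose in EA1 from 3.06 ± 2.23 to 163 ± 94.5 CPM and in EA3 from 3.66 ± 2.53 to 54.5 ± 71.1 CPM, and was at 0 in every EA2 library. In EA3, its alectinib libraries ran from 81 to 1481 counts, against 7 to 65 in DMSO, and the day 5 library was far above the others. Cxcl13, which attracts B cells, held at most 3 counts in EA1 DMSO libraries and 14 to 40 with alectinib. It had at most 8 counts in any library of EA2 and EA3, so that, as for Pf4, its call in EA1 adds nothing to its counts.

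Of 11 other neutrophil factors listed, 4 were tested. In EA1, 2 were higher and 1 lower, while EA2 and EA3 each had 1 higher and 2 lower. The median log2 fold change was 0.53 for EA1 (1.66 without Csf3), -1.43 for EA2 and -0.53 for EA3. Among all 14264 genes tested, calls in either direction made up 33.6%, 24.4% and 32.6%, with the lines in the same order. Only 4 genes of the list were tested, and a difference from these shares was not tested. Csf3, the growth factor of neutrophils, fell by 2.98 on the log2 scale in EA2 (adjusted p = 0.00230) and by 2.38 in EA3 (adjusted p = 0.00256, edgeR), from 61.5 ± 43.1 to 9.40 ± 1.63 CPM in the latter, and held at most 4 counts in EA1. Csf2, which encodes GM-CSF, fell in all 3 lines, from 7 to 485 counts in DMSO to at most 1 count with alectinib in EA1. Saa3, an acute-phase gene, rose in all lines, from 5.66 ± 5.78 to 143 ± 49.1 CPM in EA1.

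Among 13 genes for NF-kB factors and their inhibitors, all tested, alectinib raised 2 and lowered 1 in EA1, raised 6 in EA2 and raised 4 in EA3 (median log2 fold change 0.00, 0.43 and 0.46). Over all genes, 33.6%, 24.4% and 32.6% were called in these lines, so that 3 of 13 in EA1 and 4 of 13 in EA3 were not above the background. Tnfaip3, which encodes the inhibitor A20, rose in each line (log2 fold change 1.25 ± 0.29 for EA1, 1.46 ± 0.28 for EA2 and 1.81 ± 0.28 for EA3). Rel, a subunit of NF-kB, rose in EA2 alone (1.84 ± 0.21), and Nfkbie, an inhibitor, in EA3 alone (2.16 ± 0.26), and both effects differed between lines (adjusted p = 0.00248 for each, edgeR). Of 8 upstream receptors and adaptors, 2 were higher in each line and 1, 0 and 2 lower in EA1, EA2 and EA3 (median log2 fold change 0.12, 0.20 and 0.24), which in EA1 and EA2 was close to the background. Tlr2, a receptor for bacterial lipopeptides, went from 1 to 4 counts per library to 20 to 48 in EA1, from 0 to 6 to 7 to 29 in EA2 and from 7 to 11 to 78 to 262 in EA3, and since it entered the tests mainly through alectinib libraries its calls add nothing to these counts. Il17rc, a subunit of the IL-17 receptor, rose by 0.97, 1.71 and 1.22 on the log2 scale. Il17ra, the partner subunit, fell by 1.00 in EA1 and by 0.78 in EA3. Of 6 factors of mRNA decay and stability, 1, 2 and 1 were higher in EA1, EA2 and EA3 and 2 were lower in each (median log2 fold change -0.36, 0.27 and -0.71). Arid5a, which stabilizes inflammatory transcripts, was lower in each line (log2 fold change -2.83 for EA1, -1.34 for EA2 and -1.54 for EA3), and Zfp36l2, a decay factor, by -0.84, -1.69 and -1.15, while Zfp36l1, its relative, was higher in EA2 (1.52). These lists are described by their counts and medians, and no test was made of a list as a whole.

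The genes most like each member over the 24 libraries, once the mean of each line was subtracted, are given as a description with Pearson's r over log2 CPM. The 24 libraries share lines, days and treatments, and r includes the contrast with DMSO. Cxcl1 was most like Tcp11l2, Selenop and Cdkn1b (r = 0.94, 0.94 and 0.93), and Cxcl5 most like Shisa4, Ephb3 and Lxn (0.94, 0.94 and 0.93). Cxcl15 was closest to Creg1, Vnn3 and C3 (0.94, 0.94 and 0.93), and Ppbp to Shisa4, Snn and Atp9a (0.92, 0.90 and 0.90). Cxcl3 was closest to Vnn3, P3h4 and Hp (0.85, 0.84 and 0.83). For Cxcl2, which was at or near the floor in EA1 and EA2, the genes were H2-D1, Ecm1 and Dbp (0.89, 0.85 and 0.85).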

How the data were processed

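RNA sequencing libraries of EA1, EA2 and EA3 cells were analysed from the table of raw counts per gene that the authors deposited. Per the study's methods, the authors checked reads with FastQC, trimmed adapters, mapped reads to mm10 with STAR and took counts from its internal counter; the library kit was stranded, and the annotation release and strand column are not given in the sources used here. Of 55415 lines in the table, 24 held dates in place of a symbol and were dropped (0.129% to 0.201% of the counts per library). The labels' treatment text names days 1, 3, 5 and 7, whereas sample titles also give day 2; groups follow the titles.

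Tests used edgeR 4.0.16 in R 4.3.3 (TMM factors, filterByExpr with a minimum count of 10, quasi-likelihood test with robust estimation, Benjamini-Hochberg adjustment over all genes tested, threshold 0.05). The 24 libraries entered 1 fit with 12 line-and-day blocks and an alectinib effect per line. The pairing comes from the labels, by which a DMSO and an alectinib culture of 1 line were taken on the same day. Across genes, deviations from the group means correlated at -0.300 to 0.549 within these pairs. Differences between lines within a treatment were fitted with the day as a block, and changes over days with log2 of the day. Confidence intervals are at 95%. Log2 CPM used a prior count of 2. Positions and lengths of the longest coding transcript came from GENCODE M21, and promoters from RefSeq. Tables were summarised in Python 3.11.15 with pandas 2.3.3, and calculations were tested on simulated counts.

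Members were matched by symbol alone, but they and the gene lists were chosen with earlier results of these data known. The rule for naming genes takes all members, the 3 genes most like each member (among genes with a mean log2 CPM of at least 3), and at most 3 genes per list with the largest fold change among those past the threshold. Alternatives were DESeq2 1.42.0, scaling in edgeR by its size factors or by library size, no filter, at least 10 counts in every library, no block, each line alone, all 26 libraries and each day left out in turn.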

Additional observations from a re-analysis of the deposited data

Results flagged for a closer look

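Checked for a value that stands apart from the other 3 of its group, 2 of 40 groups were marked, where chance marks about 1 group in 20. Both are Cxcl15 with alectinib, at 4.17 CPM (37 counts) on day 3 in EA2, against 0.674 to 1.09 CPM on the other days, and at 141 CPM (1299 counts) on day 5 in EA3, against 2.22 to 15.2 CPM.

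Between the lines, the alectinib effect differed in edgeR (2 degrees of freedom) for Cxcl1 (adjusted p = 0.0140), Cxcl5 (0.0214), Cxcl15 (0.00672) and Ppbp (0.000535), with the sizes given in the report. The call of Cxcl15 adds nothing to its counts, since it entered the test almost wholly through alectinib libraries.

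The libraries labelled EA3 day 7, which enter the report only where they are named, held more of every member with alectinib than in DMSO. With alectinib, they held 347 CPM of Cxcl1, 0.507 CPM of Cxcl2 (6 counts), 14.9 CPM of Cxcl3, 854 CPM of Cxcl5, 3.21 CPM of Cxcl15 and 4.74 CPM of Ppbp, and in DMSO 43.7, 0.252, 2.01, 63.3, 0.252 and 1.38 CPM. There is 1 library per treatment, so that these differences have no replicate check.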

How the results depend on the processing

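Of 29 results for single members, 15 kept their direction and their side of the threshold under every alternative computed, as did 262 of the 307 values over all 29. Requiring at least 10 counts in every library left 1, 1 and 0 members past the threshold in EA1, EA2 and EA3, 1 whose effect and 1 whose DMSO level differed between lines, 3 whose alectinib level did, and 1 and 0 that changed over days in DMSO and alectinib, since few members were then tested. DESeq2 called 2 members whose alectinib effect changed over days, 5 for the DMSO level and 2 for the alectinib level. Without a filter, 5 members changed over days in DMSO and 5 in alectinib. With all 26 libraries, 2 members differed in their effect between lines and 0 changed over days in DMSO. The causes were not tested.

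Leaving out each day in turn gave 4 to 5 members past the threshold in EA1, 2 to 3 in EA2 and 3 to 4 in EA3, 1 to 4 whose effect differed between lines, 4 to 5 whose DMSO level and 5 to 6 whose alectinib level did, 0 to 4 that changed over days in DMSO and 0 to 2 in alectinib. In EA3, the log2 fold change of Cxcl1 (-0.08) was 0.04 under library size alone, 0.42 with all 26 libraries and -0.43 to 0.08 without a day. That of Cxcl3 (0.13) was -0.20 without the replicate block and -0.29 to 0.47 without a day. Under library size alone, the median of all genes moved from 0.06 to 0.16 in EA1, from -0.00 to -0.04 in EA2 and from 0.07 to 0.18 in EA3. Without the block, 5, 2 and 3 members passed in EA1, EA2 and EA3, and 3 in place of 4 differed in their effect between lines; the calls lost were those of Cxcl3 in EA2 and of Cxcl15 between lines. Depth limits Cxcl2 most, at or under 3 counts in 14 of 24 libraries, then Cxcl15 in 7, Ppbp in 3 and Cxcl3 in 2.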
